A study of Mus musculus with 10 samples.

Results

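The genes described here encode subunits of the 26S proteasome, and were measured at E14.5 in germ cells sorted from fetal mouse ovaries. They are the protein-coding genes whose symbol is Psma, Psmb, Psmc or Psmd followed by a number, without Psmc3ip (a recombination factor and not a proteasome subunit) and without pseudogenes. The pattern matched 44 symbols, of which 5 were left out, so that 39 genes remain of the 55536 in the count table. They lie on 16 chromosomes. By role they are 7 alpha ring genes, the meiotic alpha gene Psma8, 7 beta ring genes, 4 inducible or thymic beta genes, 6 ATPase genes of the 19S cap, 11 other genes of the cap and 3 genes of cap assembly chaperones. The 31 genes of the alpha ring, the beta ring, the ATPases and the other cap subunits are called the core genes below.

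The 26S proteasome is the chamber in which cells destroy proteins tagged with ubiquitin. Its 20S barrel is built of outer alpha rings, which guard the entrance, and inner beta rings, which hold the cutting sites, and its 19S cap recognises ubiquitin, removes it and unfolds the substrate with a ring of ATPases. Interferon can replace the cutting subunits by inducible forms that favour peptides for antigen presentation. In mouse testis Psma8 takes the place of the alpha subunit encoded by Psma7, and male mice without it arrest in meiosis. These roles are given as background.

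Bulk RNA was sequenced from 10 libraries of GFP-positive cells, sorted as live cells from dissociated female gonads. The strain is labelled C57BL/6, and the Oct4-EGFP reporter, which marks germ cells, came from a stock of mixed B6 and 129S4 origin. Taf4b-deficient cells (infertile, 4 libraries), Taf4b-heterozygous cells (fertile, 4 libraries) and Taf4b-wildtype cells (fertile, 2 libraries) came from matings of Taf4b heterozygotes that were homozygous for Oct4-EGFP, so all 3 groups carry the reporter. Taf4b encodes a germ cell subunit of the general transcription factor TFIID. The labels name neither the deleted part of Taf4b nor separate animals, so p-values measure only the spread between these samples, which may be technical.

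Libraries held 28949924 to 44166320 reads in genes, and 20317 genes had enough reads to be tested. Taf4b stood at 56.1 to 65.0 CPM (counts scaled to library size over tested genes) in deficient libraries, 144 to 234 CPM in heterozygous and 152 to 207 CPM in wildtype libraries. The 7 germ cell markers, Dazl and Ddx4 among them, summed to 4961 to 5857 CPM in deficient libraries, 4837 to 5616 CPM in heterozygous libraries and 5175 to 5444 CPM in wildtype libraries. Markers of other cells were low for pregranulosa (at most 47.9 CPM summed in any library), stromal (at most 13.9 CPM) and erythroid cells (at most 15.6 CPM). Endothelial markers summed to 93.3 to 380 CPM in the deficient group, 67.0 to 386 CPM in the heterozygous group and 175 to 227 CPM in the wildtype group, highest in heterozygous replicate 1 and deficient replicate 3. Pecam1 made up most of that sum, while Cdh5, a defining endothelial gene, stood at no more than 0.236 CPM in any library. The 12 markers of macrophages and other leukocytes, none of them at 0 reads throughout, summed to 21.0 to 35.2 CPM in the deficient group, 9.64 to 19.1 in the heterozygous group and 18.2 to 22.9 in the wildtype group. Deficient replicates 2 and 4 and heterozygous replicate 3 stood apart in Gm23935, a short gene annotated as a miRNA, with 454, 141 and 87.4 CPM against 4146 to 5068 CPM in the other libraries. Counts of called members are also given without these 3 libraries where they differ.

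Promoters of the members that move together in the results below, and of the inducible gene Psmb9, are shown for their sequence context. RefSeq's promoter table (GRCm38.p6) held 32 of the 39 genes. The 250 bases before the start of Psma6 (chr12:55383972-55384221, plus strand), Psma1 (chr7:114276117-114276366, minus strand), Psma3 (chr12:70974373-70974622, plus strand) and Psmb9 (chr17:34187331-34187580, minus strand) follow, 5′ to 3′ along each gene. Capitals mark CCAAT (the NF-Y box), GGGCGG (the Sp box) and CCGGAAG (an ETS box) on either strand.
Psma6: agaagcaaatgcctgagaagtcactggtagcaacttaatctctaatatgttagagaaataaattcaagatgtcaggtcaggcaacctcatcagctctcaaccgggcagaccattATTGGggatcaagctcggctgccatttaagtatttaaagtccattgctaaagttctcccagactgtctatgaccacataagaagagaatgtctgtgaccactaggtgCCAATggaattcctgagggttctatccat
Psma1: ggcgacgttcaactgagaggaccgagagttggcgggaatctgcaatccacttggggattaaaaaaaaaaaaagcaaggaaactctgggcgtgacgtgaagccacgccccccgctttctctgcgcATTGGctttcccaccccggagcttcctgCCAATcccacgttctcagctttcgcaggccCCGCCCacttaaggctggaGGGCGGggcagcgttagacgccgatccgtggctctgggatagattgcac
Psma3: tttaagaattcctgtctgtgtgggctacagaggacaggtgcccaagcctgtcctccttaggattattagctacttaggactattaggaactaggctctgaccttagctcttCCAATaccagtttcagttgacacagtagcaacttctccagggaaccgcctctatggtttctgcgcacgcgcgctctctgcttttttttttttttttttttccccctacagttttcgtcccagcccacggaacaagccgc
Psmb9: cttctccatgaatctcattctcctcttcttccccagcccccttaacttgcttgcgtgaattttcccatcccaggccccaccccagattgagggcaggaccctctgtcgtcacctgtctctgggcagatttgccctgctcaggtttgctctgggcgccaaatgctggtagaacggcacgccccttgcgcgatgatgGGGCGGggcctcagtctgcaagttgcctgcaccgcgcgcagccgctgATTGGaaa
The RefSeq start used for Psmb9 lies 434 bases inside the annotated gene, and those of the other 3 genes within 2 bases of the annotated end.

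CCAAT was present in the promoters of 13 of the 32 genes (40.6%), against 33.8% of all 32851 RefSeq promoters searched over the same 250 bases and both strands. The 32 genes had 34 promoters, and a gene was counted if any of its promoters matched. Shares of all promoters count each promoter singly, so the units differ. GGGCGG was present in 18 genes (56.2%), against 32.7% of all promoters. CCGGAAG was present in 9 genes (28.1%), all of them core genes, against 6.9% of all promoters. It occurred in none of the 4 windows printed. Psma6 is counted among the 9 through another of its RefSeq entries, and the other genes with this box include Psmd4, Psmc2, Psmd11, Psmd12 and Psmd2. The antioxidant response core TGACNNNGC was found in 5 genes (15.6%, all promoters 10.2%), TATAAA in 4 (12.5%, all promoters 12.4%), the interferon-stimulated GAAANNGAA in 3 (9.4%, all promoters 7.1%) and the NRF1 box CGCATGCG in Psma2 alone (3.1%, all promoters 1.5%). Matches of different motifs overlapped in 1 gene, Psmd9. A match is a string of letters and was not tied to the binding of any factor here.

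Transcripts of the constitutive proteasome were abundant in all libraries, those of the inducible forms scarce. On the deposited TPM scale, which divides by transcript length, each of the 31 core genes averaged above the median tested gene (7.48 TPM), and 6.79% of tested genes stood above the lowest core gene. Psmb6, which encodes the caspase-like cutting subunit, was highest at 1499 ± 194 TPM (SD over the 10 libraries). Psmb2, a beta ring gene without a cutting site, followed at 1153 ± 106 TPM, and Psmd2, a large scaffold of the cap, at 853 ± 95.6 TPM. Psmb6 exceeded Psmb2 and Psmb2 exceeded Psmd2 in all 10 libraries, and Psmd2 exceeded the fourth gene, Psma6 (774 ± 113 TPM), in 8 of them.

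Core genes spanned a 10.5-fold range of mean TPM down to Psmd8, a cap subunit, at 143 ± 17.5 TPM. Most neighbours in this order changed places between libraries: Psmb4 lay above Psmd1 in 5 of 10, and Psmc1 above Psmb1 in 4 of 10. Beta ring genes had a median of 422 TPM, alpha ring genes 393 TPM, non-ATPase cap genes 249 TPM and ATPase genes 242 TPM. The 6 ATPase genes, whose products form a single ring, were the most even, from 207 TPM for Psmc4 to 303 TPM for Psmc1. The chaperones of cap assembly were spread more widely, with Psmd5 at 152 ± 33.7, Psmd10 at 98.1 ± 16.4 and Psmd9 at 13.5 ± 2.24 TPM.

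The plot of TPM by gene sets these levels side by side for the 3 genotypes.

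**Figure D1:**
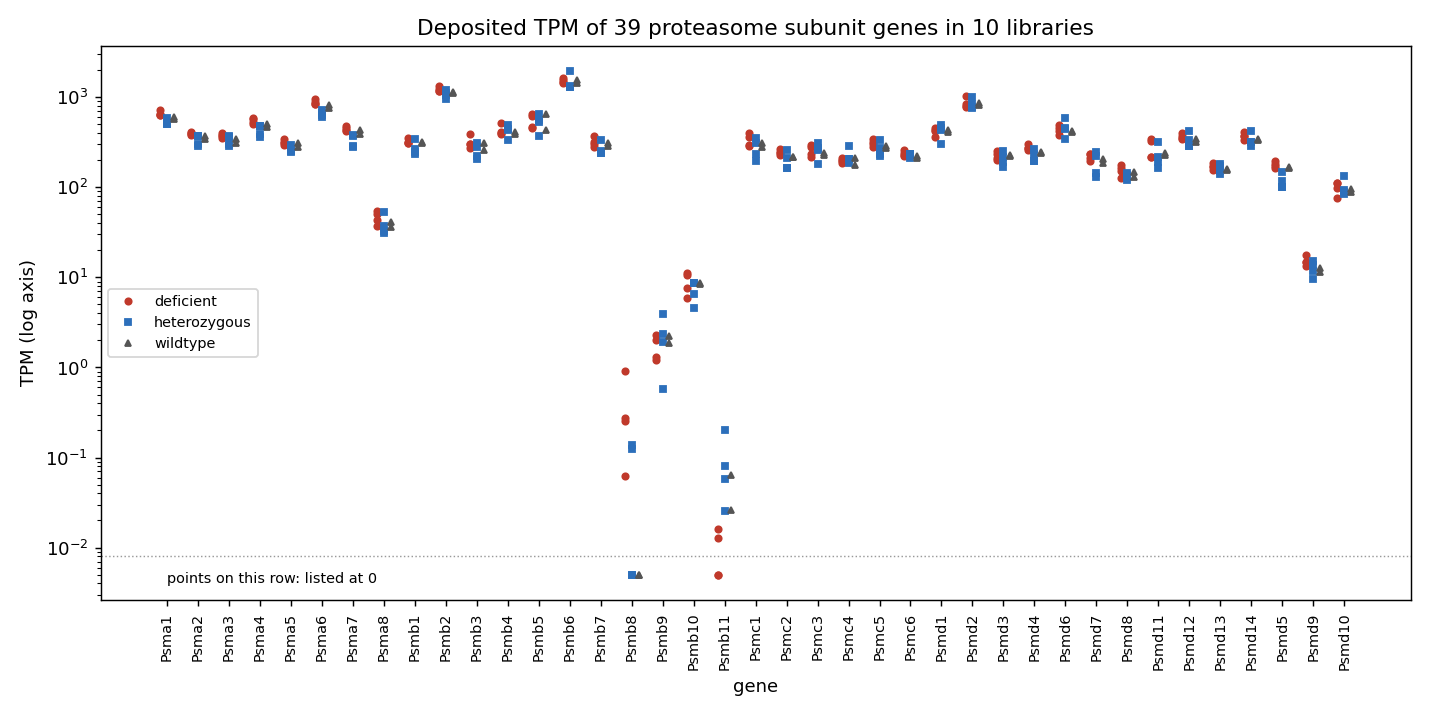
Deposited TPM (log axis) of the 39 genes, 1 point per library, with deficient, heterozygous and wildtype libraries from left to right at each gene. Core genes average 143 TPM or more, Psma8 41.8 TPM, and Psmb8 and Psmb11 below 1 TPM, with points under the dotted line listed at 0.

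All members together took 0.9257% (heterozygous replicate 4, 95% exact Clopper-Pearson interval 0.9222 to 0.9292%) to 1.243% (deficient replicate 2, interval 1.24 to 1.247%) of a library's reads, where the intervals cover counting error only. Within the core set, transcripts varied together between libraries. Pearson's r of each core gene with the mean of the other core genes, over log2 CPM in 10 libraries of 3 genotypes, had a median of 0.91 and a highest value of 0.99 (Psmb2). It was above 0.8 for 20 of 31 core genes (64.5%), and for 4.89% of the 20280 other tested genes, which had a median of -0.10. The points share the libraries' scaling and their stage, so these values describe and do not test. The lowest values in the core set belonged to Psmd1 (0.03), Psmb4 (0.07), Psmd6 (0.17) and Psmc3 (0.34), and outside it Psma8 had 0.20, Psmb9 -0.21 and Psmd10 0.43.

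**Figure D2:**
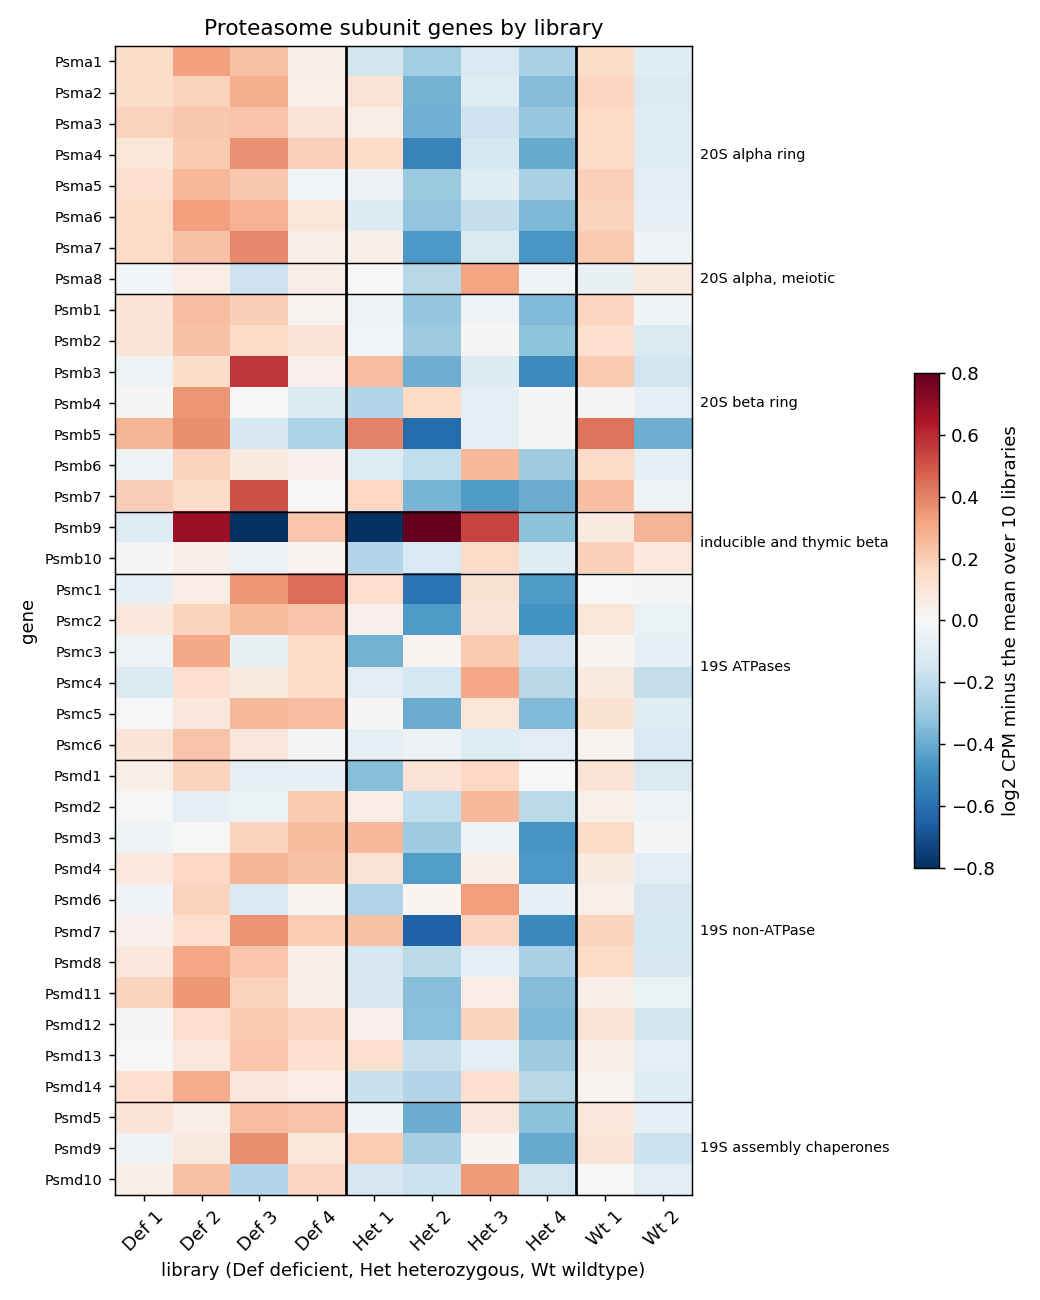
Log2 CPM of the 37 tested members minus each gene's mean over the 10 libraries, with genes grouped by role and libraries by genotype, and with colours that saturate at 0.8 either way. Most core genes are red in the deficient columns and blue in heterozygous replicates 2 and 4, while Psma8 and Psmb9 follow other patterns.

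Whether these genes differ when Taf4b is missing was asked first against the heterozygous libraries, which are the larger fertile group. Members were called by edgeR's quasi-likelihood test where p, adjusted by Benjamini-Hochberg over all 20317 genes, was under 0.05, and none was, where 0.00984% of tested genes were called higher and 0.00492% lower. The lowest adjusted p among members was 0.296. The estimates were positive in 34 of 37 members, with a median log2 fold change of 0.30 against -0.05 over all tested genes. An unadjusted p under 0.05 was reached by 16 members, all with higher values in deficient libraries, where 4.81% of all tested genes reached it in that direction. For 9 members every deficient library lay above every heterozygous library, as it did for 3.31% of tested genes, and for no member did every deficient library lie below. In bulk samples, a different number of cells of a kind and a different amount of RNA per cell cannot be told apart.

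All 7 alpha ring genes were among those 16, with log2 fold changes of 0.32 to 0.46 and a median of 0.40. Psma6 stood at 473, 535, 517 and 455 CPM in deficient libraries, against 395, 342, 373 and 332 CPM in heterozygous and 482 and 407 CPM in wildtype libraries. Every deficient library thus lay above every heterozygous one, and the wildtype libraries fell within or below the deficient range. The log2 fold change of deficient over heterozygous libraries was 0.46 (SE 0.11, 95% interval 0.22 to 0.70, unadjusted p = 0.00156, adjusted p = 0.296 by edgeR), and the alternatives gave adjusted p-values of 0.0163 to 0.677.

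Psma1, another outer ring gene, stood at 403, 456, 429 and 379 CPM in deficient libraries, against 329, 300, 335 and 304 CPM in heterozygous and 404 and 341 CPM in wildtype libraries. The deficient and heterozygous ranges did not overlap, and the log2 fold change was 0.40 (SE 0.11, 95% interval 0.16 to 0.63, adjusted p = 0.336 by edgeR). Psma3 stood at 506, 516, 522 and 482 CPM in deficient libraries, against 461, 340, 397 and 360 CPM in heterozygous and 496 and 414 CPM in wildtype libraries. Again no heterozygous library reached the lowest deficient one (log2 fold change 0.38, SE 0.12, adjusted p = 0.368 by edgeR). Psma7, the constitutive counterpart of Psma8, stood at 288, 305, 338 and 269 CPM in deficient libraries, against 268, 188, 239 and 188 CPM in heterozygous and 299 and 253 CPM in wildtype libraries. Its ranges touched without overlap, 269 against 268 CPM at the nearest, and the log2 fold change was 0.44 (SE 0.14, 95% interval 0.13 to 0.76, adjusted p = 0.377 by edgeR).

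DESeq2 called Psma6 (adjusted p = 0.0163) and Psma1 (adjusted p = 0.0354) higher in deficient libraries. They were among 129 genes that it called higher out of the same 20317 genes. Without heterozygous replicate 1, edgeR called Psma6, Psma3, Psma4 and Psmb7 higher (adjusted p 0.0452 to 0.0477), among 306 genes called higher in that fit, or 1.53% of those tested. With any other single library left out it called no member in this comparison. Without the 3 libraries low in Gm23935 it called none either, and the median log2 fold change of members was 0.34. In deficient libraries the macrophage and leukocyte markers were also higher in value, in 12 of 12 genes with a median log2 fold change of 1.05. None of them was called by edgeR, 8 had an unadjusted p under 0.05, DESeq2 called 4 (C1qa, C1qb, C1qc and Fcer1g), and their part in these results was not tested.

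Beta ring genes were positive in 7 of 7, with a median of 0.30, and 3 reached an unadjusted p under 0.05, namely Psmb1, Psmb2 and Psmb7. The genes of the 3 cutting subunits were also read singly. Psmb5, the chymotrypsin-like subunit, stood at 212, 227, 161 and 147 CPM in deficient libraries, against 232, 115, 167 and 174 CPM in heterozygous and 238 and 134 CPM in wildtype libraries, so all 3 ranges overlapped. Psmb6 stood at 586, 685, 634 and 619 CPM in deficient libraries, against 561, 526, 726 and 496 CPM in heterozygous and 671 and 573 CPM in wildtype libraries, with the highest value in heterozygous replicate 3. Psmb7, the trypsin-like subunit, stood at 116, 112, 144 and 102 CPM in deficient libraries, against 114, 78.0, 74.0 and 76.9 CPM in heterozygous and 119 and 98.2 CPM in wildtype libraries. Heterozygous replicate 1 was level with the deficient libraries, and the other 3 heterozygous libraries lay below them.

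In the cap the medians were smaller. ATPase genes were positive in 6 of 6 with a median of 0.24, and 1 of them, Psmc2, reached an unadjusted p under 0.05. Non-ATPase genes were positive in 10 of 11 with a median of 0.23, and 4 reached it: Psmd11, Psmd8, Psmd4 (a ubiquitin receptor) and Psmd14 (the deubiquitinase of the cap). Psmd8 stood at 132, 154, 145 and 129 CPM in deficient libraries, against 113, 107, 118 and 104 CPM in heterozygous and 139 and 113 CPM in wildtype libraries, with no overlap between deficient and heterozygous. Psmd6, a structural cap subunit, had the lowest estimate in the core set (-0.01, SE 0.14, but 0.01 with DESeq2's size factors), at 339, 394, 318 and 349 CPM in deficient libraries, against 293, 350, 436 and 331 CPM in heterozygous and 356 and 314 CPM in wildtype libraries. The chaperone genes Psmd5, Psmd9 and Psmd10 had estimates of 0.31, 0.23 and 0.08.

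**Figure D3:**
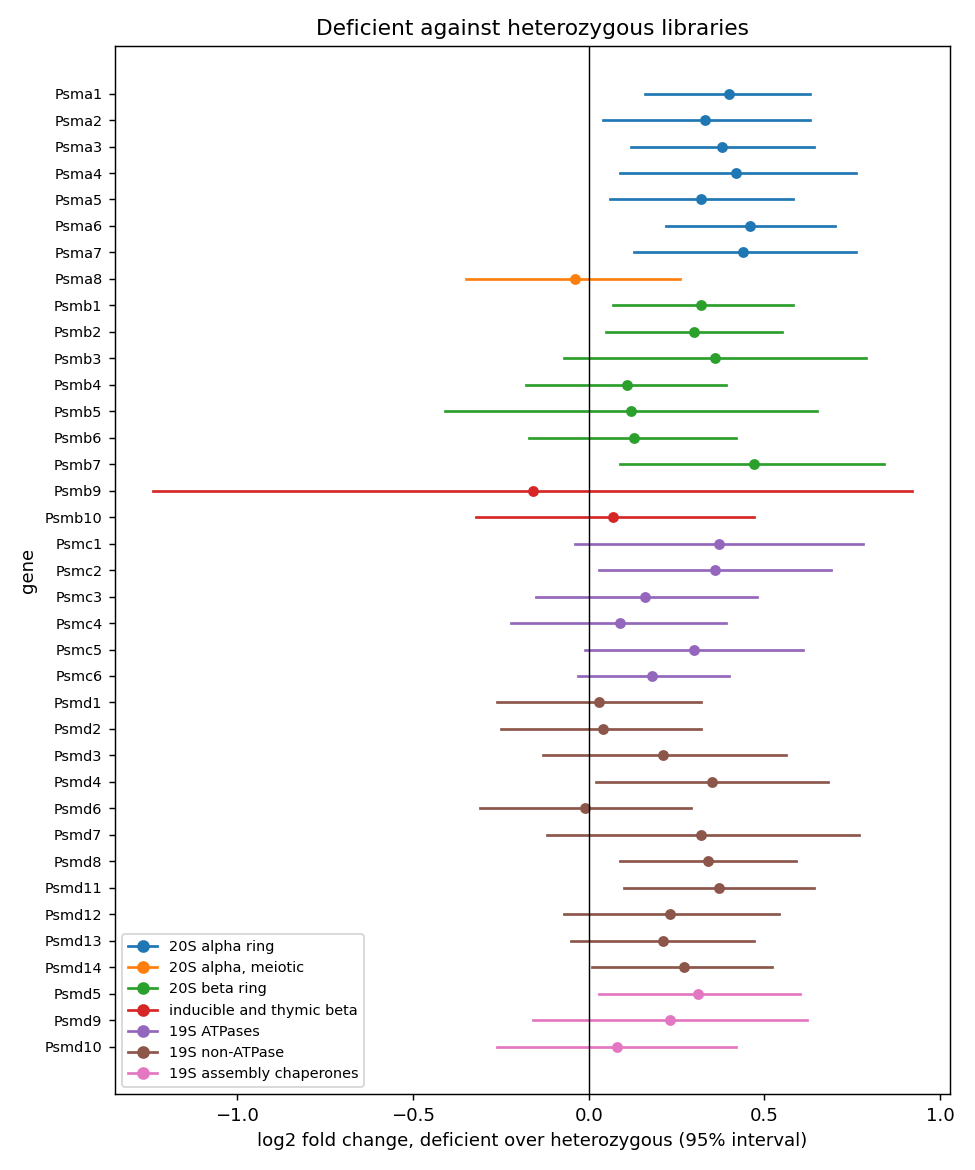
Log2 fold change of deficient over heterozygous libraries for the 37 tested members (points) with 95% intervals from the edgeR test (lines), coloured by role. The intervals of all 7 alpha ring genes lie above 0, while those of many other members include it, Psmc1, Psmb3 and Psmb6 among them. Estimates lie below 0 for 3 members, Psma8 (-0.04), Psmd6 (-0.01) and Psmb9 (-0.16).

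Litter dates gave a way to look within batches, since the labels give each library 1 of 3 dates. The mean centred log2 CPM of the core genes was 0.07 and 0.20 in deficient replicates 1 and 2 of January 29, against -0.30 in heterozygous replicate 4 and 0.13 in wildtype replicate 1 of that date. For March 1 the core mean of deficient replicate 3 was 0.19 and that of wildtype replicate 2 was -0.10. For March 7 the core mean of deficient replicate 4 was 0.09, with 0.00, -0.29 and 0.02 in heterozygous replicates 1, 2 and 3. On both dates that held both genotypes the deficient libraries lay above the heterozygous ones, by as little as 0.09 against 0.02. Wildtype replicate 1 lay between the deficient libraries of its date.

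Against wildtype the estimates were smaller. All comparisons of genotypes come from 1 model and share libraries with one another, so they are not independent. No member was called in deficient against wildtype libraries by edgeR, DESeq2 or limma on TPM, none reached an unadjusted p under 0.05, and 0% of tested genes were called higher and 0% lower. Estimates were positive for 34 of 37 members with a median of 0.13, against 0.00 over all tested genes. That median was 0.02 without wildtype replicate 2 and 0.24 without wildtype replicate 1. The 3 members with the smallest p were Psmd11, Psmd14 and Psmc6.

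Psmd11, a cap scaffold subunit, stood at 296, 334, 298 and 271 CPM in deficient libraries, against 271 and 253 CPM in wildtype and 240, 207, 274 and 206 CPM in heterozygous libraries. Its lowest deficient library was level with wildtype replicate 1 (log2 fold change of deficient over wildtype 0.20, 95% interval -0.14 to 0.53). Psmd14 stood at 300, 336, 291 and 286 CPM in deficient libraries, against 279 and 256 CPM in wildtype and 241, 233, 299 and 234 CPM in heterozygous libraries. Its deficient libraries all lay above both wildtype ones, by a log2 fold change of 0.18 (95% interval -0.13 to 0.50). Such a lack of overlap was found in 2 of 37 members and in 1315 of 20317 tested genes. In the other direction it was found in 1 member, Psmb10, and in 1255 tested genes. Psmc6, an ATPase gene, stood at 273, 298, 271 and 252 CPM in deficient libraries, against 260 and 233 CPM in wildtype and 241, 246, 236 and 239 CPM in heterozygous libraries. It was the most even member within the heterozygous group, and its log2 fold change of deficient over wildtype was 0.15 (95% interval -0.12 to 0.41).

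Against both fertile genotypes, weighted equally, no member was called by edgeR or DESeq2, with 0% of tested genes called higher and 0.00492% lower. The median estimate was 0.21, against -0.01 over all tested genes, and 34 of 37 were positive. With positive estimates, 5 members reached an unadjusted p under 0.05, 3 of them in the alpha ring, as did 403 (1.98%) of all tested genes. The smallest p-values belonged to Psma6 (log2 fold change 0.31), Psma1 (0.28) and Psmd11 (0.28), each with adjusted p = 0.904 by edgeR.

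Estimates of heterozygous against wildtype libraries were mostly negative. No member was called in heterozygous against wildtype libraries by edgeR or DESeq2, with 0% of tested genes called higher and 0.00492% lower, and 5 of 37 members had positive estimates. The median was -0.16, against 0.02 over all tested genes. Psma6 had the smallest p, with a log2 fold change of -0.30 (95% interval -0.59 to -0.01, unadjusted p = 0.0443, adjusted p = 0.575 by edgeR), and was the 1 member with an unadjusted p under 0.05. Psma7 (-0.32) and Psma1 (-0.23) followed, with adjusted p-values of 0.695 and 0.713 by edgeR. Among the members with positive estimates, those with the smallest p were Psmd6 (0.07), Psmc4 (0.03) and Psmd10 (0.03), none with an unadjusted p under 0.05. Psmc4, an ATPase gene, stood at 163, 157, 215 and 149 CPM in heterozygous libraries, against 182 and 152 CPM in wildtype and 160, 190, 182 and 194 CPM in deficient libraries, and the 3 ranges overlapped. Psmd10, a cap assembly chaperone gene, stood at 67.3, 65.5, 93.4 and 66.1 CPM in heterozygous libraries, against 73.5 and 69.6 CPM in wildtype and 76.3, 86.6, 62.7 and 83.0 CPM in deficient libraries. Heterozygous replicate 3 lay above all others, and without the 3 libraries low in Gm23935 the estimate was -0.11.

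Psma8 (ENSMUSG00000036743; chromosome 18, 14706151 to 14762301, plus strand of GRCm38, no overlapping gene) was detected in every library, and on counts its estimate between deficient and heterozygous libraries lay below those of all 7 alpha ring genes. It stood at 48.9, 51.6, 44.2 and 51.3 CPM in deficient libraries, against 49.5, 42.6, 61.6 and 48.4 CPM in heterozygous and 47.6 and 52.4 CPM in wildtype libraries. The highest library was heterozygous replicate 3 and the lowest heterozygous replicate 2, with all others between them. The log2 fold change of deficient over heterozygous libraries was -0.04 (SE 0.14, 95% interval -0.35 to 0.26, adjusted p = 0.902 by edgeR), and 0.01 with upper quartile scaling. That of deficient over wildtype was -0.03 (95% interval -0.41 to 0.35).

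The deposited TPM of Psma8 gave another picture of the same libraries: 50.0, 37.5, 43.7 and 54.5 TPM in the deficient group, 32.7, 31.3, 52.7 and 37.5 TPM in the heterozygous group and 36.6 and 41.0 TPM in the wildtype group. On that scale the log2 fold change of deficient over heterozygous libraries was 0.29 at a pseudocount of 0.1, not called by limma, so its sign depended on the unit. Its place below all alpha ring genes was not kept on TPM either. Group means of the alpha ring gene Psma3 were 376 TPM (deficient) and 329 TPM (heterozygous), those of Psma8 46.45 and 38.53 TPM. Psma7 stood at 436, 459, 475 and 423 TPM in the deficient group, 369, 280, 376 and 290 TPM in the heterozygous group and 428 and 393 TPM in the wildtype group. Psma8 therefore made up 7.57 to 11.4% of the summed TPM of Psma7 and Psma8 in the deficient group, 8.13 to 12.3% in the heterozygous group and 7.89 to 9.44% in the wildtype group. Psma7 and Psma8 are paralogues, and how reads that fit both were counted was not given in the sources used here.

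Psma8 lies 20.9 kb from Taf4b, its nearest gene by annotation on that side, and 23.2 kb from Ss18 on the other. Ss18, a chromatin remodelling subunit gene, stood at 131, 115, 185 and 146 CPM in the deficient group, 172, 103, 123 and 117 CPM in the heterozygous group and 149 and 123 CPM in the wildtype group, and its deficient against heterozygous estimate of 0.16 was not called (adjusted p = 0.713 by edgeR). Among the tested genes within 500 kb of Psma8, Taf4b alone was called between deficient and heterozygous libraries by edgeR (log2 fold change -1.71, adjusted p = 0.0118).

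Transcripts of inducible and thymic subunits were scarce. Psmb10 stood at 3.97, 4.06, 3.81 and 3.98 CPM in deficient libraries, against 3.35, 3.61, 4.38 and 3.69 CPM in heterozygous and 4.49 and 4.18 CPM in wildtype libraries. It was the highest of the 4 at 8.08 ± 2.02 TPM over the 10 libraries. It made up 1.57 to 3.64% of the summed TPM of Psmb10 and its counterpart Psmb7. Psmb9 stood at 1.23, 2.12, 0.657 and 1.54 CPM in deficient libraries, against 0.495, 2.73, 1.92 and 1.05 CPM in heterozygous and 1.39 and 1.59 CPM in wildtype libraries, and made up at most 0.293% of the TPM of Psmb9 and Psmb6.

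Psmb8 and Psmb11 did not pass the filter for testing. Psmb8 had 15, 5, 1 and 6 reads in deficient libraries, against 0, 0, 3 and 3 reads in heterozygous and 0 and 1 reads in wildtype libraries. A count of 0 allows up to 0.0873 CPM in heterozygous replicate 1, 0.078 in heterozygous replicate 2 and 0.0991 in wildtype replicate 1. Psmb11, the thymic subunit, had 1, 1, 1 and 3 reads in deficient libraries, against 4, 7, 4 and 4 reads in heterozygous and 4 and 2 reads in wildtype libraries.

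Female germ cells at E14.5 pass from the end of pluripotency into meiotic prophase, and libraries of 1 genotype differed in how far they had gone. A stage score was taken as the mean log2 CPM of 34 meiotic prophase genes minus that of 20 pluripotency genes, none of them a proteasome gene. Deficient libraries scored 0.08, 1.18, -1.99 and -0.28, heterozygous libraries -1.93, 2.11, 1.80 and 1.69, and wildtype libraries -0.14 and 0.21. The score comes from the same RNA as the members, and 3 of the 4 heterozygous libraries hold the highest values. With genotype in the model, edgeR called 13.0% of tested genes higher and 11.8% lower as the score rose.

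Of the 37 members, 2 were called higher with stage and 3 lower, and the median slope was -0.03 log2 units per unit of score, against 0.00 over all tested genes. Psmb9 had the steepest slope, 0.52 (SE 0.10, 95% interval 0.29 to 0.76, adjusted p = 0.0049 by edgeR). Its lowest values, 0.495 and 0.657 CPM, were those of heterozygous replicate 1 and deficient replicate 3, which also had the lowest scores, and its highest, 2.73 CPM, was that of heterozygous replicate 2, which had the highest score. The counts behind this are small, 17 to 105 reads per library. Psmb9 (chromosome 17, 34181987 to 34187764, minus strand of GRCm38) overlaps Tap1, a peptide transporter gene on the opposite strand. Tap1 had a slope of 0.54 (SE 0.08, adjusted p = 0.00086 by edgeR). Since the strand setting of the counting was not given, reads in the stretch that the pair share cannot be told apart.

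Psmd1, the largest scaffold of the cap, was the other gene called higher, with a slope of 0.10 (SE 0.03, adjusted p = 0.0385 by edgeR). The call was lost with litter date as a term (adjusted p = 0.127) and with no filter on low counts (0.0915). It stood at 699, 767, 642 and 647 CPM in the deficient group, 534, 731, 759 and 677 CPM in the heterozygous group and 731 and 625 CPM in the wildtype group, lowest in heterozygous replicate 1. Psmc3, an ATPase gene, had a slope of 0.11 that was not called (SE 0.04, adjusted p = 0.0547 by edgeR), at 246, 313, 243 and 283 CPM in the deficient group, 194, 257, 292 and 226 CPM in the heterozygous group and 256 and 242 CPM in the wildtype group.

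Psmb7 had a slope of -0.14 (SE 0.03, adjusted p = 0.0144 by edgeR), and its values above were highest in deficient replicate 3, which had the lowest score. Psmb3, a beta ring gene without a cutting site, had a slope of -0.15 (SE 0.04, adjusted p = 0.0276 by edgeR), at 105, 120, 162 and 111 CPM in the deficient group, 129, 82.7, 101 and 76.3 CPM in the heterozygous group and 126 and 97.0 CPM in the wildtype group. Psma4, an alpha ring gene, had a slope of -0.11 (SE 0.04, adjusted p = 0.0438 by edgeR), at 317, 344, 384 and 339 CPM in the deficient group, 331, 207, 270 and 225 CPM in the heterozygous group and 330 and 277 CPM in the wildtype group. Both were highest in deficient replicate 3. With litter date as a term neither Psmb3 (adjusted p = 0.0792 by edgeR) nor Psma4 (0.0737) was called, and Psma4 was also not called by DESeq2 (0.058), with DESeq2's size factors or upper quartile scaling in edgeR, or with no filter on low counts. Psmb7, Psma4, Psmd1, Psmc3 and Psma3 are among the members that overlap annotated genes on the opposite strand (Nek6, AY074887, Htr2b, Slc39a13 and 3110056K07Rik), and Psmd1 also overlaps the protein-coding Gm21972 on its own strand. With the strand setting not given, their reads are to that extent uncertain. The slope of Psma7 was -0.09 (adjusted p = 0.114 by edgeR) and that of Psma8 0.03 (SE 0.04, 95% interval -0.07 to 0.12, adjusted p = 0.706 by edgeR).

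These calls depended on single libraries, as did the number of genes called in all. Without heterozygous replicate 1 no member was called in either direction, where 1.96% of tested genes were called higher and 1.47% lower. Without deficient replicate 3 Psmb9 was the 1 call, where 8.62% of tested genes were called higher. Without heterozygous replicate 2 Psmb7 and Psmb9 were called, where 11.1% of tested genes were called higher and 9.50% lower. Without heterozygous replicate 3, 13 members were called lower and 2 higher, where 14.4% of tested genes were called lower and 14.3% higher. Psmb9 was called higher with each of the other 9 libraries left out in turn.

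The libraries low in Gm23935 moved the count most. Without those 3 libraries, an alternative chosen after seeing the data that leaves 7, 16 members were called lower and 2 higher (Psmb9 and Psmd1), where 16.5% of tested genes were called lower and 17.4% higher. The 16 were 4 of 7 alpha ring genes, 2 of 7 beta ring genes, 3 of 6 ATPase genes, 5 of 11 non-ATPase cap genes and 2 of 3 chaperone genes. Psmd7, a cap subunit beside the deubiquitinase, had a slope of -0.20 (SE 0.03, adjusted p = 0.000572 by edgeR), Psmc1, an ATPase gene, one of -0.18 (SE 0.02, adjusted p = 0.000409) and Psmb3 one of -0.20 (SE 0.04, adjusted p = 0.00204). The slope of Psma8 was -0.01 in these 7 libraries and not called. A fit that keeps all 10 libraries with a term for the 3 called 14 members lower and 2 higher (Psmb9 and Psmd1), where 14.8% of tested genes were called lower and 15.7% higher. Pecam1 and Cldn5, the 2 of 4 tested endothelial markers called with stage over all libraries, had slopes of -0.61 and -0.44 by edgeR. Cdh5 and Emcn had too few reads to be tested (at most 0.236 and 0.157 CPM in any library). Whether these slopes reflect endothelial cells, and the part of such cells in the members' slopes, was not tested.

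**Figure D4:**
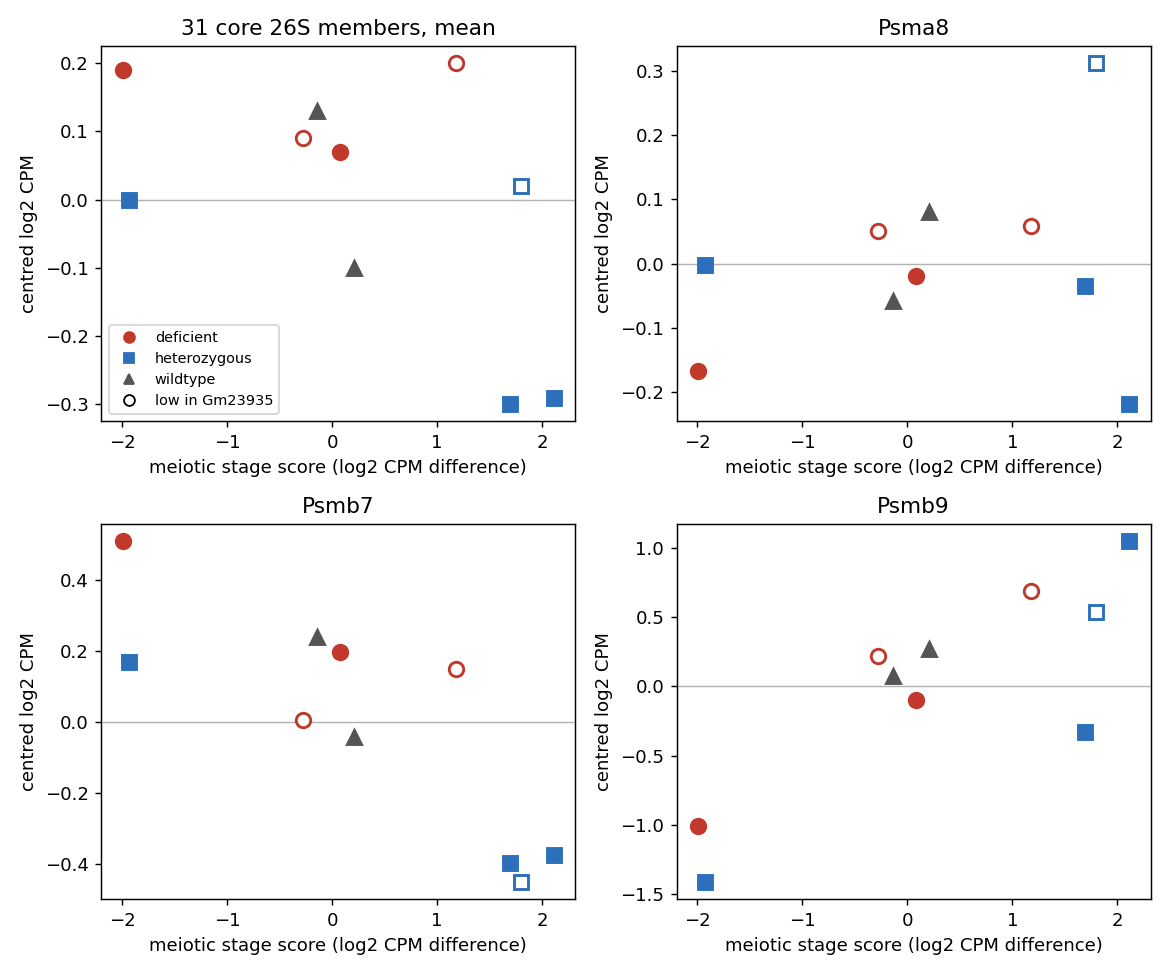
Centred log2 CPM against the meiotic stage score for the mean of the 31 core genes, Psma8, Psmb7 and Psmb9, with 1 point per library shaped by genotype and open where Gm23935 is low. The core mean runs down among filled points, Psmb9 runs up, and the 3 advanced heterozygous libraries are the lowest in Psmb7.

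Stage and genotype overlap in these libraries, since those with the highest scores are heterozygous. With the stage score as a covariate, the median log2 fold change of members between deficient and heterozygous libraries was 0.25, against 0.30 without it, and no member was called.

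Other genes of the pathway were read from lists of its helpers. None was called between deficient and heterozygous libraries by edgeR or DESeq2 in any of the 6 lists. By edgeR an unadjusted p under 0.05 was reached by 2 assembly factors, by no ubiquitin gene and by 1 gene in each of the other 4 lists. Over all tested genes, 11.9% reached it in either direction. All 5 assembly factors tested had positive estimates with a median of 0.36. Pomp, which encodes the maturation factor of the 20S barrel, stood at 166, 171, 188 and 166 CPM in deficient libraries, against 151, 107, 128 and 107 CPM in heterozygous and 169 and 147 CPM in wildtype libraries. Its deficient and heterozygous libraries did not overlap (log2 fold change 0.49, SE 0.13, unadjusted p = 0.00393, adjusted p = 0.346 by edgeR). Psmg2, a chaperone of alpha ring assembly, had an estimate of 0.38 and Usp14, a deubiquitinase that binds the cap, 0.31 (adjusted p = 0.379 for both by edgeR).

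Activators and the inhibitor gave a mixed picture, with 4 of 5 positive and a median of 0.13. Psme4, which encodes the PA200 activator that acts in meiotic cells of mouse testis, stood at 85.6, 69.0, 88.2 and 60.2 CPM in deficient libraries, against 133, 123, 54.8 and 141 CPM in heterozygous and 70.8 and 78.7 CPM in wildtype libraries. Heterozygous replicate 3, a library low in Gm23935, lay below all others while the remaining heterozygous libraries lay above all others, and the estimate was -0.58 (SE 0.26, adjusted p = 0.414 by edgeR), or -0.61 (SE 0.13, adjusted p = 0.155) without the 3 libraries low in Gm23935. Shuttle proteins and other cap-bound proteins had a median of 0.03 over 12 genes, ubiquitin genes and their activating enzymes 0.13 over 6, and factors of transcriptional control 0.11 over 7. Among these last, Nfe2l1, whose product drives proteasome genes when the proteasome is inhibited, had an estimate of 0.11, and the related Nfe2l2 one of 0.50 (adjusted p = 0.379 by edgeR). The meiotic ubiquitin and SUMO ligases had a median of -0.50 over 4 genes.

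With meiotic stage, more of these helpers were called, where 13.0% of all tested genes were called higher and 11.8% lower. The meiotic ligase genes Rnf212, Ccnb1ip1 and Fbxo47 were called higher, 3 of the 4 listed, with slopes of 0.82, 0.38 and 0.47. Among ubiquitin genes, Uba1 (slope -0.17) and Rps27a (-0.19) were called lower and Uba6, the alternative activating enzyme, higher (0.30). Nfe2l2 (slope -0.15, adjusted p = 0.0278 by edgeR) and Ddi1, which stood under 1 CPM in every library (-0.56, adjusted p = 0.0470), were called lower and Ngly1, which processes the Nfe2l1 product, higher (0.27, adjusted p = 0.00291). Of the shuttle proteins, Ubqln4 was called lower (slope -0.26, adjusted p = 0.00322 by edgeR). No assembly factor and no activator was called by edgeR or DESeq2, with 2 of 5 and 1 of 5 at an unadjusted p under 0.05. Over all tested genes, 36.6% had an unadjusted p under 0.05 with stage by edgeR. Without the 3 libraries low in Gm23935, 17.4% of all tested genes were called higher and 16.5% lower. The calls named here kept their direction in that fit except that Ddi1 was no longer called (adjusted p = 0.149 by edgeR). Further genes of these lists were called. Those called lower included Pomp (slope -0.12), Psmg2 (-0.09), the activator gene Psme1 (-0.11), Adrm1 (-0.13) and Usp14 (-0.07), and those called higher were Ecpas (0.15) and Ubqln2 (0.17).

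Macrophage and leukocyte markers summed to 9.64 CPM in heterozygous replicate 1 and 29.6 CPM in deficient replicate 3, the libraries lowest in Psmb9, and to 19.1 CPM in heterozygous replicate 2, the highest. Of the 12 markers, 11 had positive slopes on stage by edgeR, with a median of 0.12. Among them edgeR called 1, Laptm5, higher with stage, where 13.0% of tested genes were called higher. DESeq2 called Laptm5 and Coro1a higher. The part of such cells in the slope of Psmb9 was not tested.

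In the authors' deposited table, 34 of 37 members had a positive log2 fold change, with a median of 0.24. None had an adjusted p under 0.05 there, and the lowest was 0.777, that of Psma6. Values over all genes of that source are not given here, so these do not show whether the members differ from other genes. The authors' deposited table does not name its contrast.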

How the data were processed

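RNA-seq of 10 libraries was deposited as a table of read counts per gene, as TPM and as a table of fold changes. Per the submitters' processing notes, tools included Trim Galore 0.5.0, FastQC 0.11.5, HISAT2 2.1.0, SAMtools 1.9, StringTie 1.3.3b, featureCounts (Subread 1.6.2) and DESeq2, with build GRCm38. The count values deposited by the authors are whole reads per gene, and the TPM values deposited by the authors are scaled by transcript length and to the same total in each library. The third table gives, per the file headers, a DESeq2 mean of scaled counts (a signal), a log2 fold change with its error, a test score and p-values, and its contrast is not named. Gene names came from the matching of identifiers to the GENCODE annotation of GRCm38. Strand setting and annotation release of the counting are not given in the sources used here.

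Counts were tested with edgeR 4.0.16 (R 4.3.3) by quasi-likelihood, in 1 model of the 3 genotypes, with TMM scaling, edgeR's default filter on low counts and Benjamini-Hochberg adjustment over 20317 genes at a threshold of 0.05. CPM are counts over the reads in tested genes times the TMM factor, on the usual CPM scale, and log2 CPM adds a prior count of 2. A second model adds the stage score. Intervals are at 95%. DESeq2 1.42.0 and limma 3.58.1 (log2 of TPM plus 0.1 or 1) served as alternatives, and the scripts were tested on simulated data. Library depth of 28949924 to 44166320 reads limits precision mainly for Psmb8, Psmb9 and Psmb11. Counting intervals and floors of 3 reads cover counting error only. No pair of libraries agreed within sampling noise (in 45 pairs, chi-square over its degrees of freedom was at least 9.74). Replicate numbers did not pair the samples. Values in every library are given for Psma7, Psma8, the cutting subunits with their inducible forms, and up to 3 members per direction with the smallest p in each comparison. A few further members were chosen after their values were seen (Psmd8 among them). Members and lists were chosen with earlier results of these data known. The interferon and antigen presentation list is not reported here.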

Additional observations from a re-analysis of the deposited data

Results flagged for a closer look

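In 3 cases the highest library of a group of 4 lay far from the other libraries of its group, with a gap above Dixon's 95% critical value. Psmd10, the assembly chaperone gene also known as gankyrin, stood at 93.4 CPM in heterozygous replicate 3, against 65.5 to 67.3 CPM in the other 3 heterozygous libraries. Psmd14, the gene of the cap's deubiquitinase, stood at 298.5 CPM in the same library, against 232.6 to 241.4 CPM in the others. Heterozygous replicate 3 is one of the 3 libraries low in Gm23935. Psmb7, the gene of the trypsin-like subunit, stood at 113.7 CPM in heterozygous replicate 1, against 74.0 to 78.0 CPM in the other heterozygous libraries, and that library has the lowest stage score of its genotype. In all, 74 pairs of member and group were searched, among which chance flags about 1 in 20, or 3.7.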

How the results depend on the processing

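Between genotypes the absence of calls held under every alternative for deficient against wildtype, deficient against both fertile genotypes and heterozygous against wildtype. For deficient against heterozygous libraries DESeq2 called 2 members higher, and leaving out single libraries gave 0 to 4. The 4 were called without heterozygous replicate 1, where 1.53% of tested genes were called higher. The median of the members was 0.23 to 0.40 in that comparison over all alternatives, 0.02 to 0.24 against wildtype, 0.17 to 0.27 against both fertile genotypes and -0.29 to -0.04 for heterozygous against wildtype. The median against wildtype was 0.02 without wildtype replicate 2 and 0.24 without wildtype replicate 1.

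Signs turned for estimates near 0. Psmd6, deficient against heterozygous, was 0.01 by DESeq2, with DESeq2's size factors and with at least 1 CPM in 4 libraries, 0.04 with upper quartile scaling and with no filter, 0.05 with a litter term, 0.09 with the stage score as covariate, 0.02 without the 3 libraries low in Gm23935, and -0.07 to 0.15 with single libraries left out. Psma8 was 0.01 with upper quartile scaling, no filter or a litter term, 0.29 and 0.28 on TPM with pseudocounts of 0.1 and 1, and -0.12 to 0.11 with single libraries left out. Psmb9 was 0.15 with a litter term, 0.55 with the stage score and -0.44 to 0.26 with single libraries left out. Psma8 against wildtype was 0.25 and 0.24 on TPM and -0.10 to 0.04 with single libraries left out. The cause was not tested.

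Calls with stage depended most on the processing. Members called higher were 1 with no filter, with a litter term, with no genotype term and with a score from pluripotency genes alone, 5 on TPM with either pseudocount, and 0 to 2 with single libraries left out. Members called lower were 1 with a litter term and on TPM with either pseudocount, and 8 with no genotype term. They were 16 without the 3 libraries low in Gm23935, where 16.5% of tested genes were called lower. With a term for them they were 14, where 14.8% were called lower (both added after seeing the data). With single libraries left out they were 0 to 13, where 294 to 2887 of all genes were called lower. For the other settings the share of all genes called is not given here, so those counts do not show a change particular to the members. The median slope was 0 on TPM with either pseudocount, -0.07 with no genotype term and -0.08 with the pluripotency score. The slope of Psma8 was -0.01 under both settings on Gm23935. The cause was not tested.

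Replicate numbers did not pair the samples: deviations of same-numbered deficient and heterozygous libraries correlated at -0.17, 0.38, -0.42 and -0.22. With the replicate block, 0 members were called higher and 0 lower with stage, Psmb9 had a slope of 0.47 (adjusted p = 0.101 by edgeR), and the deficient against heterozygous median was 0.31 with 0 calls. Depth limits Psmb8 and Psmb11, which had at most 15 reads a library.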
